A study of Vitis vinifera with 27 samples.

Results

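Glutathione S-transferases (GSTs) were followed through the ripening of Cabernet Sauvignon berries whose clusters had been exposed to sunlight. The family was taken from the deposited annotation: a gene was a member when the text of its closest protein, or its first KEGG Orthology entry, contained glutathione S-transferase or glutathione transferase. Of 28940 annotated genes, 114 were members, and 1 further matching gene was left out. Both texts named 54 of the members, the protein text alone named 4 and the KEGG entry alone named 56. A total of 104 members were above 0 in at least 1 library. Of these, 67 passed the filter used for testing (an FPKM of 1 or more in 3 or more libraries), among 19761 genes in all. FPKM is the number of fragments per kilobase of transcript, scaled to the mapped fragments of the library, so levels can be compared between genes. A gene was called when its limma adjusted p, over all tested genes, was under 0.05. Another 37 members were above 0 but below the filter, and 10 were listed at 0 throughout. A member with low levels elsewhere could pass the filter through the group in which it was high, so counts below refer to the 67 tested genes and not to the whole family.

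The study grew field vines of *Vitis vinifera* cv. Cabernet Sauvignon under 3 regimes in the season of 2012. Control vines (C) were not treated. In leaf removal at véraison (LR-V), the basal leaves of the cluster-bearing shoots were taken off, and in leaf moving at véraison (LM-V) the same leaves were pulled aside with zip ties and stayed on the vine, so that both regimes exposed the clusters and only the first removed leaf area. Berries were sampled at E-L 36 (intermediate sugar), E-L 37 (not quite ripe) and E-L 38 (ripe), with 3 biological replicates, labelled A, B and C, in each of the 9 groups. Each replicate pooled berries from 15 vines, and RNA came from deseeded berries, so skin and flesh were not separated. In such whole-berry RNA, fewer cells of one type and less RNA per cell cannot be told apart. Both treatments were set against 3 control libraries per stage that they have in common. The control libraries are a re-analysis of libraries from another deposited series, and no source used here says whether they were sequenced together with the treated libraries, so a difference between runs and a difference from C cannot be told apart. The comparison of LR-V with LM-V does not use them.

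GSTs join the tripeptide glutathione to reactive or hydrophobic molecules, or use it to reduce peroxides and other oxidised compounds. Plants carry large tau and phi classes, which act in detoxification and have members that bind flavonoids, and smaller classes such as lambda and the dehydroascorbate reductases (DHAR), which transfer thiol groups or recycle ascorbate. Conjugates made by GSTs are carried into the vacuole by ABCC transporters.

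Relative depth, estimated from the values of low genes, lay between 0.916 and 1.037 across the 27 libraries, and 27473 genes were above 0 in at least 1 of them. The estimate was searched only in a window around equal depth, so it could not show a difference larger than that window. Berry ripening markers were present (16 of 19 above 0), with summed FPKM of 2945.6 to 12617.42. Seed transcripts stood apart in some libraries. Their score, the mean of log2(FPKM + 1) over a 2S albumin-like and a vicilin-like gene, was above 3 in 6 libraries. In LR-V these were replicate A of E-L 36, replicates B and C of E-L 37 and replicates A and C of E-L 38. In LM-V it was replicate B of E-L 37. It was at most 1.73 in every control library. All 10 genes of the wider seed list (storage proteins, oleosins and late embryogenesis abundant proteins) were detected, and their summed FPKM was 24.08 to 142.69 in C, 61.32 to 697.45 in LR-V and 31.24 to 224.92 in LM-V. In LM-V at E-L 36, 2 of them were at 0, one of which belongs to the pair behind the score. The summed FPKM of 2 genes for the Rubisco small subunit, a marker of green tissue, was also higher in LR-V than in C at each stage, with medians of 315.74 against 151.38 in the first stage, 154.57 against 110.44 in the second and 292.77 against 55.71 in ripe berries. In LM-V the medians were 179.71, 118.88 and 114.94. Nearly all of the sum came from VIT_217s0000g03690, the only one of the pair called for LR-V against C, at the first and the last stage.

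The tau class held most of the members that could be classed. It had 45 members, 24 of them tested. The phi class had 5 (4 tested) and the lambda class 2, both tested and both annotated as homologs of IN2-1, a protein of maize that is induced by herbicide safeners. The zeta, DHAR, TCHQD and microsomal types had 1 member each. The yqjG type, a KEGG group of glutathionyl-hydroquinone reductases, had 3 (2 tested). For 38 members (28 tested) the texts gave no class. The other 17 (3 tested) had only a short KEGG alignment, of less than 150 bits, and no GST wording in the protein text, so their place in the family is weak. Many members had a scaffold in common, as read from gene identifiers: 12 on scaffold VIT_219s0093, 9 on VIT_219s0015 and 8 on VIT_206s0004. Not all were adjacent: on the last, VIT_206s0004g01575 and VIT_206s0004g03690 stood apart from the run of VIT_206s0004g05670 to VIT_206s0004g05720. A total of 42 members had a closest RefSeq protein in common with at least 1 other member, up to 14 with 1 protein, and no source used here says how reads that match several copies were divided between them. Values of such members are therefore uncertain, among them neighbouring tau genes, the 5 genes of VIT_205s0049 and VIT_200s0153g00050.

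A pair of parC-like tau genes made up much of the family's transcript. VIT_219s0015g02590, named after an auxin-regulated gene of tobacco, had a mean FPKM of 844 over the 27 libraries and VIT_219s0015g02880 one of 737. Together they held between 38.3% and 77.8% of the summed FPKM of all members in a library. VIT_219s0015g02690 followed at 174, and then the microsomal GST VIT_204s0159g00040 at 101, VIT_219s0015g02680 at 87.8, VIT_208s0040g03100 at 82.9, the phi gene VIT_212s0028g00930 (GST F9) at 80.0, VIT_201s0026g01340 at 68.5, VIT_208s0040g03040 at 49.6 and VIT_219s0093g00160 at 38.4. The untested members reached an FPKM of at most 13.23 in any library, and 33 members were at 1 or more in all 27.

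**Figure D1:**
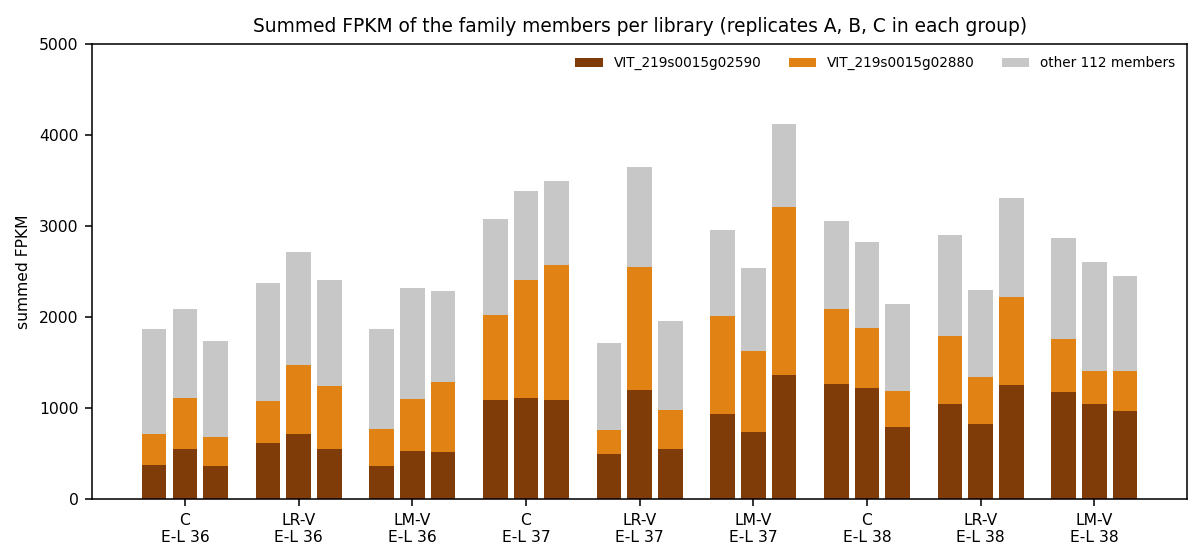
Summed FPKM of the 114 members in each library, 1 bar per replicate (A, B, C from left to right), split into VIT_219s0015g02590, VIT_219s0015g02880 and all other members. In C the mean sum was 1900.7 at E-L 36 and 3318.8 at E-L 37. In LR-V at E-L 37, replicates A and C lie at 1721.2 and 1962.0 and replicate B at 3649.5.

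Ripening of the control berries shows the course of the family without treatment. From E-L 36 to E-L 37, 16 members rose and 8 fell, 35.8% of those tested against 37.5% of all genes (27.6% higher, 9.95% lower). The median log2 change of the members was 0.23 and that of all genes 0.20. After scaling by the median of ratios, which by its construction centres all genes near 0 (0.01 here), the median of the members was 0.08. From E-L 37 to E-L 38, 2 members rose and 15 fell, 25.4% against 28.5% of all genes. The share that fell was 22.4% against 17.6%, and the share that rose 2.99% against 10.9%.

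Both abundant parC-like genes rose between E-L 36 and E-L 37 in C. FPKM of VIT_219s0015g02590 was 373.64, 546.64 and 366.77 in replicates A, B and C at E-L 36, and 1088.58, 1115.91 and 1094.85 at E-L 37. VIT_219s0015g02880 had 343.86, 563.99 and 314.94 and then 935.06, 1288.46 and 1475.96. No library of the earlier stage reached the later one for either gene. The log2 changes were 1.38 ± 0.27 (SE, n = 3 per group; limma adjusted p = 0.000467) and 1.62 ± 0.46 (limma adjusted p = 0.00882). At E-L 38 the former stood at 1094 ± 263 (SD, n = 3) and the latter at 625.6 ± 212, and neither differed from E-L 37 at the threshold (limma adjusted p = 0.941 and 0.106).

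Abundant members that rose with them were the microsomal gene VIT_204s0159g00040 (73.89 to 105.9), VIT_208s0040g03100 (66.5 to 93.05) and VIT_208s0040g03040 (40.67 to 54.95). Larger log2 changes were found in rarer transcripts. VIT_212s0028g00920, annotated as GST 3 and placed in the phi class by its KEGG protein, went from a mean FPKM of 0.7233 to 6.57, VIT_201s0026g02400 (tau) from 0.1367 to 3.47, VIT_205s0051g00130 (tau) from 1.12 to 3.367 and VIT_207s0005g04890 from 6.427 to 16.29. The strongest falls included VIT_206s0004g05680, from 36.76 to 12.41, VIT_216s0039g00970 (tau, GST 23-like), from 23.63 to 7.867, VIT_205s0049g01090, from 13.57 to 5.443, VIT_219s0093g00220 (tau, parC-like), from 8.1 to 2.117, and VIT_215s0024g01650, from 2.367 to 0.32. VIT_215s0024g01640 was at 2.01, 2.03 and 4.0 in C at E-L 36 and was listed at 0 in all 3 control libraries at E-L 37. Its values lie in coarse steps, so they rest on few reads. At E-L 36 it was at 0, 4.06 and 0 in LR-V and at 0, 6.13 and 0 in LM-V. The call in C was lost under 4 of 14 alternatives, with adjusted p up to 0.0999 in limma.

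In the last step to ripeness, 2 members rose in C. VIT_219s0093g00160 (tau, parC-like) was at 30.1, 24.69 and 26.27 at E-L 37 and at 49.18, 49.29 and 49.16 at E-L 38, without overlap. The microsomal gene VIT_204s0159g00040, a membrane protein of a fold unrelated to the soluble GSTs, went from 105.9 ± 11.6 to 151.7 ± 19.7 (SD, n = 3), after a rise from 73.89 ± 7.32 at E-L 36. Among those that fell, VIT_200s0153g00050 went from 28.45, 24.97 and 32.06 to 8.7, 8.57 and 8.54, a log2 change of −1.61 ± 0.18 (SE; limma adjusted p = 8.58e-07). The GST 23-like pair of VIT_216s0039 fell too, from 17.03 to 4.557 for VIT_216s0039g00990 and from 7.867 to 3.377 for VIT_216s0039g00970, as did VIT_215s0024g01540 (3.71 to 1.097), VIT_215s0107g00160 (2.95 to 0.8333) and VIT_215s0024g01630 (3.8 to 0.9567, groups overlapping). Both lambda genes and the DHAR gene fell as well. VIT_206s0004g03690 went from 19.87 to 12.21, VIT_213s0067g03470 from 18.34 to 12.94 and VIT_214s0006g00630 from 7.787 to 3.477. The last 2 were chosen after their values were seen. VIT_214s0006g00630 is DHAR3, chloroplastic, of a class that recycles ascorbate, by its protein text alone. Its first KEGG entry names no GST.

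At E-L 36, leaf removal raised 6 members over C and lowered none, 8.96% of the tested members against 5.54% of all genes (4.08% higher, 1.46% lower). The log2 difference was above 0 in 56 of the 67, with a median of 0.27 against 0.02 for all genes. Among the 33 members at FPKM 1 or more in every library, 4 were higher and the median was 0.26. At an unadjusted p under 0.05 there were 22 members. No share of all genes is given for this threshold, here or below, nor for the sign count or the 33 members. Such counts describe the members and cannot be read as a trait of the family.

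VIT_201s0026g01340, a member without a class and one of the 10 most abundant, led at this stage. Its FPKM was 58.93, 57.89 and 70.56 in C and 116.37, 134.7 and 137.47 in LR-V. Each LR-V library was far above each C library. The log2 difference was 1.04 ± 0.19 (SE, n = 3 per group; limma adjusted p = 0.00216), and it held under all 14 alternatives that apply, with a highest adjusted p of 0.0151. VIT_200s0153g00050 had 23.91, 29.33 and 18.0 in C and 50.82, 44.04 and 32.89 in LR-V (log2 difference 0.82 ± 0.18, limma adjusted p = 0.00748). Next came 2 neighbours on VIT_205s0049, both annotated as probable GSTs and with a closest RefSeq protein in common. VIT_205s0049g01120 was at 7.12, 6.83 and 3.83 in C and at 15.72, 19.32 and 11.93 in LR-V, and VIT_205s0049g01090 at 13.02, 16.04 and 11.65 and at 25.57, 21.26 and 24.56. Neither gene's groups overlapped (limma adjusted p = 0.0147 and 0.0241).

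The lambda gene VIT_206s0004g03690 rose from 26.47 ± 1.15 to 41.36 ± 7.79 (SD, n = 3; limma adjusted p = 0.0365), a call that was lost under 10 of 14 alternatives, with adjusted p up to 0.165 in limma. VIT_200s0193g00140, a short KEGG match whose place in the family is weak, was listed at 0 in all 3 control libraries and at 1.22, 1.96 and 1.37 in LR-V, and it was also above 0 in LM-V (0.69, 1.65 and 0.84). No fold is given for it. The count of 6 rests on single libraries: it was 1 without C replicate C or without LR-V replicate A, and 3 without C replicate A or without LR-V replicate B. The gene left was VIT_201s0026g01340 each time the count was 1. Without LR-V replicate A, the LR-V library of this stage with a seed score above 3, its log2 difference was 1.12. The seed score of the remaining LR-V libraries was 0.167 in replicate B and 1.72 in replicate C. At E-L 36 the wider seed list, which also holds late embryogenesis abundant proteins, summed to 283.77 or more in each LR-V library. The sums were 92.22 to 130.19 in C and 139.4 to 158.99 in LM-V. Control replicates A and B had a score of 0, so the list can be present where the pair is not. Whether the remaining LR-V libraries held seed tissue was not tested.

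Leaf moving called no member at E-L 36, against 0.0708% of all genes (0.0607% higher, 0.0101% lower), and 5 members had an unadjusted p under 0.05 in limma. The rule of the authors rebuilt on these values (a fold of at least 2 and a NOISeq probability of at least 0.8) called none either. Leaf removal against leaf moving also called none in limma (0.0354% of all genes, 6 members at an unadjusted p under 0.05), and the rebuilt rule called 2. VIT_201s0026g01340 in LM-V was at 119.74, 84.66 and 71.5, all above C but with a limma adjusted p of 0.521. The median over the members was 0.13 for LM-V and 0.27 for LR-V, and the difference between the treatments had a median of 0.19 against 0.04 for all genes.

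**Figure D2:**
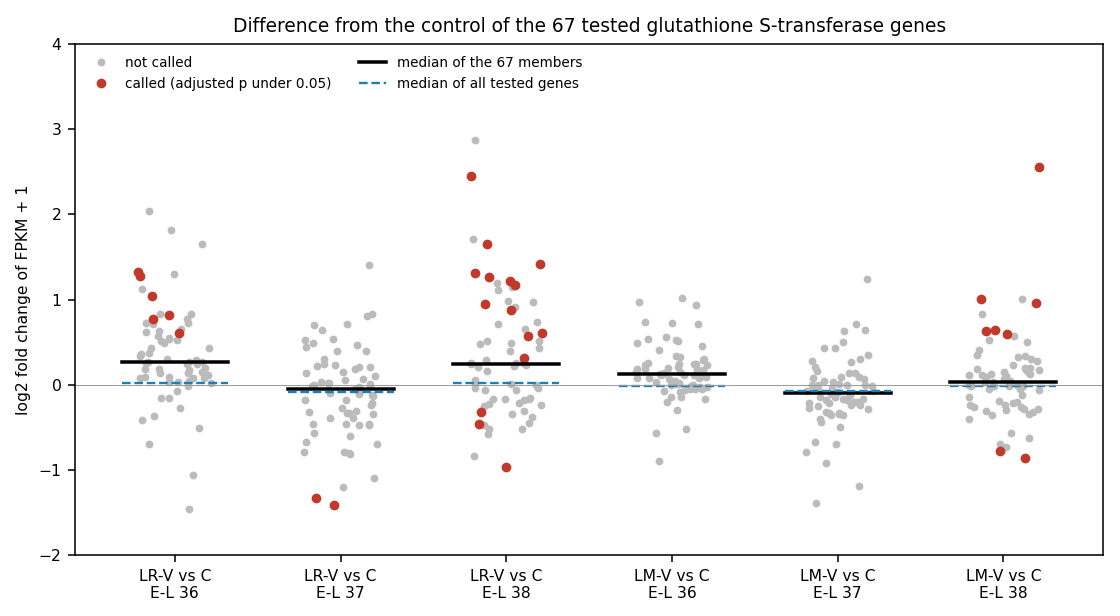
Log2 fold change of FPKM + 1 against C for each of the 67 tested members (points, red where called by limma), by treatment and stage. The black line is the median of the members, which for LR-V lies at 0.27, −0.05 and 0.24 in the 3 stages, and the dashed line is the median of all tested genes.

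At E-L 37 the picture for leaf removal was different. No member was higher than in C, and 2 were lower (2.99% against 5.01% of all genes, of which 1.79% higher and 3.23% lower). VIT_207s0104g01800, GST F13 of the phi class, was at 3.43, 5.08 and 4.34 in C and at 0.92, 0.94 and 1.05 in LR-V. The LR-V libraries were tightly grouped and far below C, with a log2 difference of −1.41 ± 0.28 (SE, n = 3 per group; limma adjusted p = 0.00523). Without the seed-high libraries, which leaves LR-V with replicate A alone and takes its spread from the other groups, it was −1.45 and missed the threshold (adjusted p = 0.0855 in limma). LM-V lay between them at 2.92, 1.46 and 1.87, with no call. VIT_201s0026g02400 (tau), one of the genes that rose in C at this stage, was at 3.19, 5.14 and 2.08 in C and at 0.21, 1.24 and 0.83 in LR-V (limma adjusted p = 0.0295). Its call was lost under 6 of 14 alternatives, with adjusted p up to 0.142 in limma, among them leaving out any one of C replicates A and B and LR-V replicates A and C.

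The abundant parC-like genes split the LR-V libraries of this stage. VIT_219s0015g02590 was at 500.42 in replicate A, 1198.79 in B and 555.14 in C, beside 1088.58 to 1115.91 in the control. VIT_219s0015g02880 was at 256.03, 1355.26 and 424.88, beside 935.06 to 1475.96. Replicates A and C were below each control library for both genes and replicate B was within or above the control range. Neither gene was called (limma adjusted p = 0.165 and 0.138). Replicate B also had the highest seed score of all libraries, 4.84, but replicate C, at 3.17, was above 3 as well and replicate A was at 0.242. The part of seed tissue in this split was not tested.

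Without LR-V replicate B, 7 members were called instead of 2: 6 were lower, namely VIT_219s0015g02880 (log2 difference −1.87), VIT_201s0026g02400 (−1.53), VIT_207s0104g01800 (−1.40), VIT_219s0015g02590 (−1.06), VIT_219s0027g00460 (−1.03) and VIT_207s0005g00030 (−0.96), and VIT_219s0093g00160 was higher (0.69). VIT_219s0027g00460 was chosen after its values were seen. Leaving out LR-V replicate A, LR-V replicate C or C replicate B gave 1 call. No share of all genes is given for this or any other refit, so a change in these counts cannot be read as particular to the members. The same libraries moved the sum of the family, which averaged 2444.2 ± 1050.7 (SD, n = 3) in LR-V against 3318.8 ± 211.8 in C, with overlapping values. LM-V called no member at this stage (0.572% of all genes, 0.369% higher and 0.202% lower, 5 members at an unadjusted p under 0.05), and 1 without LM-V replicate C. LR-V against LM-V called none (0% of all genes, 7 at an unadjusted p under 0.05), and the rebuilt rule called 1.

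In ripe berries (E-L 38), leaf removal changed the most members: 12 were higher and 3 lower than in C. This was 22.4% of the tested members against 17.8% of all genes, with 17.9% against 10.1% higher and 4.48% against 7.66% lower. The median log2 difference was 0.24 against 0.02 for all genes, and it was 0.22 among the 33 members at FPKM 1 or more throughout, of which 8 were higher and 2 lower. By class, 4 of 24 tau members were higher and none lower, 1 of 4 phi members went each way, 1 of 2 lambda members was higher and the microsomal member was lower.

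The lambda gene VIT_206s0004g03690 showed the lowest adjusted p of the family. It was at 10.0, 10.15 and 16.47 in C and at 30.66, 28.76 and 42.79 in LR-V, so that the ripe LR-V berries lay above the 25.15 to 27.24 of C at E-L 36. The log2 difference of 1.42 ± 0.17 (SE, n = 3 per group; limma adjusted p = 5.81e-06) held under all 14 alternatives, and was 1.21 without the libraries with a high seed score. VIT_201s0026g01340 was at 35.36, 32.93 and 27.7 in C and at 84.93, 63.88 and 79.19 in LR-V (log2 difference 1.22 ± 0.19, limma adjusted p = 0.000133). It too had no overlap, as at E-L 36, and only without the seed-high libraries did it miss the threshold (log2 difference 0.98, adjusted p = 0.0778 in limma).

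Other loci with several family genes followed. On VIT_216s0039, VIT_216s0039g00990 was at 4.92, 4.54 and 4.21 in C and at 12.39, 8.44 and 19.7 in LR-V, and VIT_216s0039g00970 at 5.34, 1.11 and 3.68 and at 7.42, 7.31 and 11.46. Both groups of libraries were apart for both genes (log2 difference 1.31, limma adjusted p = 0.000834, and 1.27, limma adjusted p = 0.0081). On VIT_219s0093, VIT_219s0093g00220 was at 0.52, 0.69 and 1.81 in C and at 8.71, 2.18 and 6.34 in LR-V (limma adjusted p = 0.00269), and VIT_219s0093g00310 at 1.88, 2.96 and 1.44 and at 10.47, 2.09 and 8.03 (limma adjusted p = 0.0257, groups overlapping). On VIT_206s0004, VIT_206s0004g05680 stood at 12.91 ± 4.59 against 6.02 ± 1.12 (SD, n = 3). In all of these, LR-V replicates A and C were the higher ones and replicate B the lowest, and A and C are the libraries with a seed score above 3. Replicate B was also lowest for VIT_206s0004g03690, VIT_201s0026g01340, VIT_212s0028g00920, VIT_200s0153g00050 and VIT_201s0011g01900. It was not for VIT_205s0049g01120 and VIT_215s0024g01540, the other members called higher.

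Among the called members, the widest ratio of means belonged to VIT_212s0028g00920 (GST 3, phi). It was at 1.02, 1.98 and 0.91 in C and at 28.3, 3.43 and 13.33 in LR-V, and in LM-V, where no library had a seed score above 3, it was at 12.2, 14.39 and 10.51. All 6 treated libraries were above all 3 controls. The means of LR-V and C differed 11.5-fold (log2 difference 2.45 ± 0.67, SE; limma adjusted p = 0.0147). Weaker rises were those of VIT_200s0153g00050, from 8.603 to 13.51, VIT_205s0049g01120, from 1.903 to 4.37, and VIT_215s0024g01540, from 1.097 to 2.183. VIT_201s0011g01900, of the yqjG type, went from 34.71 to 43.37 and was chosen after its values were seen.

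The 3 members that fell included abundant ones. The microsomal gene VIT_204s0159g00040 was at 168.5, 156.63 and 129.95 in C and at 110.82, 119.62 and 99.21 in LR-V, close to the 97.78 to 119.17 of C one stage earlier. Its log2 difference was −0.46 ± 0.12 (SE; limma adjusted p = 0.00918). VIT_208s0040g03100 fell from 100.9 ± 7.3 to 80.47 ± 5.93 (SD, n = 3; limma adjusted p = 0.0148), and VIT_207s0104g01800 (GST F13), low in LR-V since E-L 37, from 1.963 to 0.5067 (limma adjusted p = 0.0211). The 2 abundant parC-like genes did not pass the test (log2 difference −0.06 for VIT_219s0015g02590 and 0.26 for VIT_219s0015g02880).

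Several of these calls were lost in refits that used the seed score or left libraries out, control libraries among them. With the seed score as a covariate, 9 of the 15 calls were made. They were VIT_206s0004g03690, VIT_201s0026g01340, VIT_216s0039g00990, VIT_219s0093g00220, VIT_204s0159g00040, VIT_206s0004g05680, VIT_216s0039g00970, VIT_208s0040g03100 and VIT_201s0011g01900. Without the seed-high libraries, an alternative chosen after seeing the data that leaves LR-V with replicate B alone and takes its spread from the other groups, 2 members were called, VIT_206s0004g03690 and, lower than in C, VIT_207s0005g00030 (log2 difference −1.18). The latter describes that single library: it was at 9.52 there, while the replicates left out, at 19.87 and 22.16, were near the 20 to 24.64 of C. The log2 difference of VIT_219s0093g00310 was then 0.03. Counts were 4 without LR-V replicate C and 8 without C replicate A or without C replicate B.

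**Figure D3:**
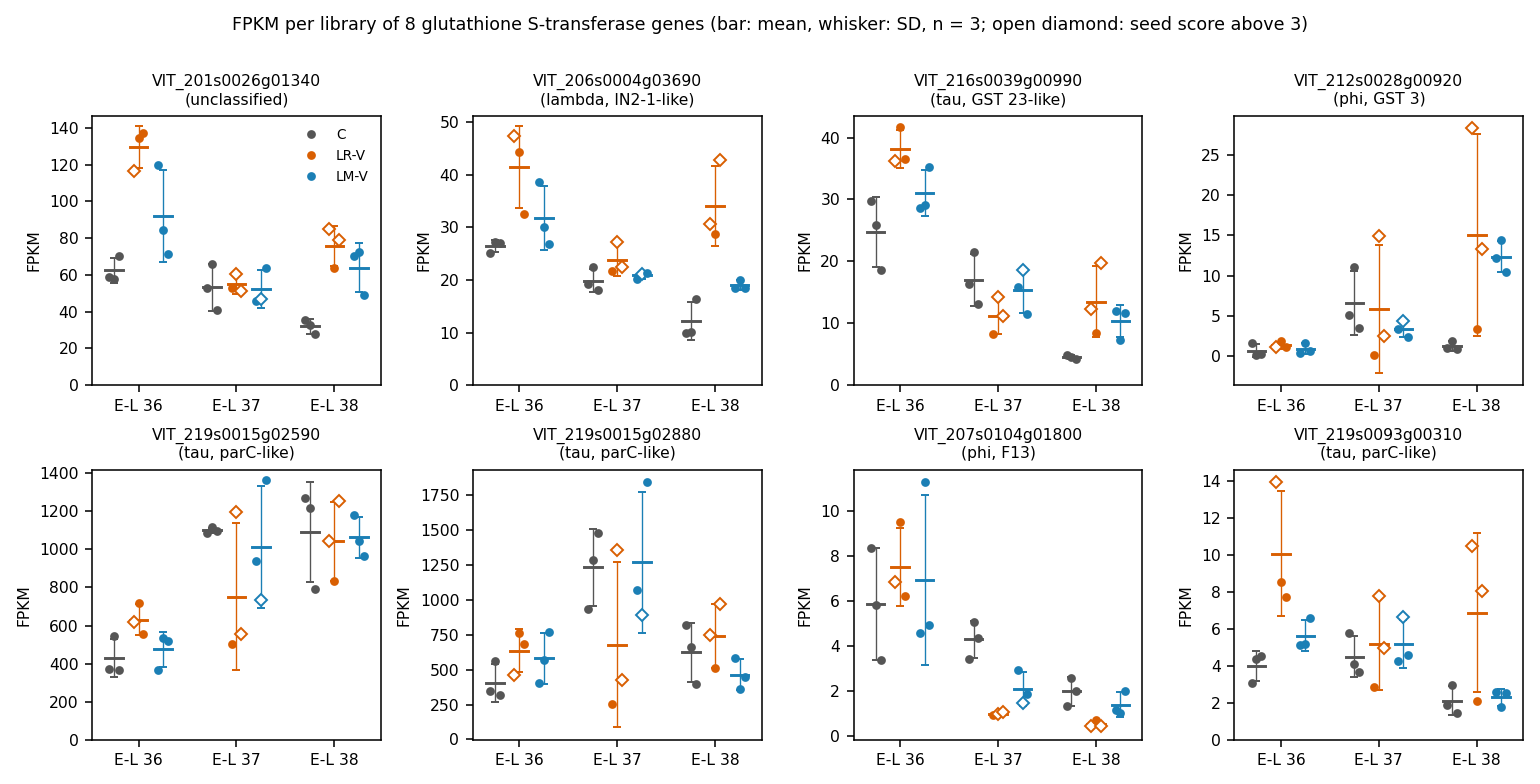
FPKM of 8 members in each library by stage and treatment, with the mean (bar) and SD (whisker, n = 3), and open diamonds for the libraries with a seed score above 3. VIT_201s0026g01340 and VIT_206s0004g03690 are above C in every LR-V library at E-L 36 and E-L 38, and VIT_207s0104g01800 is below C in every LR-V library at E-L 37 and E-L 38.

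The seed score was also set against each gene across all libraries, as a description. The correlation of a gene's deviations from its group means with those of the score had a median of 0.18 over the members and 0.06 over all genes (27 libraries, which share their groups' treatment and harvest), and it was above 0.5 in 12 members, 17.9%, against 7.93% of all genes. It was highest in VIT_219s0015g02730 (tau, parC-like), at 0.85, followed by VIT_219s0093g00310 at 0.77, VIT_208s0007g01400 (tau) at 0.73, the DHAR gene VIT_214s0006g00630 at 0.70, VIT_219s0093g00220 at 0.64 and VIT_212s0028g00920 at 0.63. The first and the third were chosen after their values were seen. The part of seed tissue in the differences between treatments was not tested, nor was that of green tissue, for which the Rubisco values are given above.

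Leaf moving called 8 members in ripe berries, 6 higher and 2 lower than in C (11.9% against 9.5% of all genes, of which 4.6% higher and 4.9% lower). No LM-V library of this stage had a seed score above 3. VIT_201s0026g01340 was again first, at 70.56, 72.58 and 48.96 against 35.36, 32.93 and 27.7 in C. With a log2 difference of 0.96 ± 0.19 (SE, n = 3 per group; limma adjusted p = 0.00221), it held under all 14 alternatives. VIT_216s0039g00990 was at 12.04, 7.36 and 11.74 against 4.92, 4.54 and 4.21 (limma adjusted p = 0.0122), and VIT_212s0028g00920, given above, had a log2 difference of 2.56 ± 0.67 (limma adjusted p = 0.0185). VIT_206s0004g03690 was at 18.51, 20.07 and 18.46 against 10.0, 10.15 and 16.47 (limma adjusted p = 0.0198). These 4 were higher than C in both treatments.

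The remaining calls of leaf moving were not made in leaf removal. Directly beside VIT_212s0028g00920, the abundant phi gene VIT_212s0028g00930 (GST F9) was at 132.84, 129.18 and 100.11 in LM-V, above 78.01, 80.27 and 77.65 in C and above 84.78, 71.96 and 82.85 in LR-V. The tau gene VIT_219s0093g00160 was at 76.52, 80.42 and 75.16, against 49.18, 49.29 and 49.16 in C and 52.22, 61.77 and 34.07 in LR-V. Lower than C were 2 genes of VIT_207s0005: VIT_207s0005g00010 at 3.23, 4.56 and 3.37 against 8.32, 8.3 and 6.06, and VIT_207s0005g00030 at 13.64, 14.47 and 10.86 against 24.64, 24.14 and 20. None of these groups of LM-V and C libraries overlapped. Each of the 6 libraries mattered: leaving out 1 at a time gave 2 to 5 calls, with 2 without C replicate A or LM-V replicate A, 3 without LM-V replicate B, 4 without C replicate B and 5 without C replicate C or LM-V replicate C.

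The direct comparison of the treatments in ripe berries gave 10 calls, 7 higher in LR-V and 3 higher in LM-V. This was 14.9% against 7.45% of all genes (5.06% higher in LR-V, 2.39% lower). Above LM-V were VIT_206s0004g03690 (34.07 ± 7.61 against 19.01 ± 0.915, SD, n = 3; limma adjusted p = 0.00672), VIT_205s0049g01090 (6.4 against 3.027), VIT_219s0093g00220 (5.743 against 1.153), VIT_200s0153g00050 (13.51 against 7.673), VIT_216s0039g00970 (8.73 against 3.097), VIT_205s0049g01120 (4.37 against 1.593) and VIT_215s0024g01630 (3.53 against 0.7467). Below it were VIT_212s0028g00930 (limma adjusted p = 0.0244), VIT_219s0093g00160 (limma adjusted p = 0.0347) and VIT_219s0015g02690, a parC-like tau gene at 128.73, 156.79 and 92.45 in LR-V and at 186.72, 289.07 and 206.17 in LM-V (limma adjusted p = 0.0214). These calls rest on single libraries more than the others. None was left without LR-V replicate C, nor without the seed-high libraries, 16 were made without LR-V replicate B, 4 without LM-V replicate C, 6 without LM-V replicate A or B and 5 with the seed score as a covariate.

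**Figure D4:**
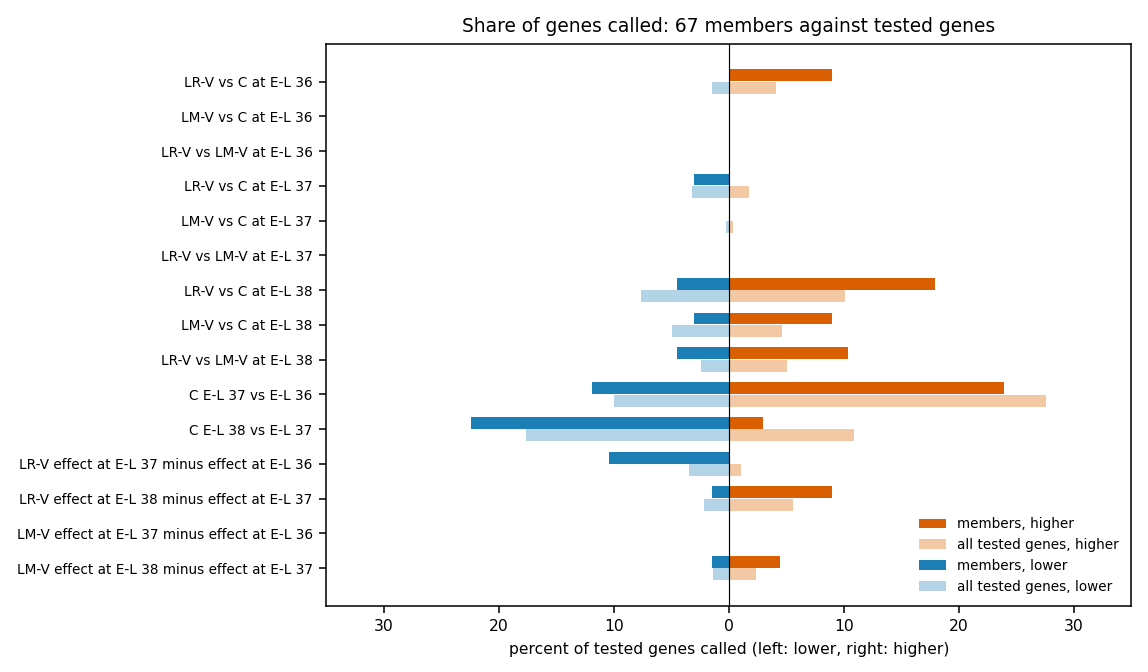
Percent of the 67 tested members (dark bars) and of all 19761 tested genes (pale bars) called by limma in each comparison, higher to the right and lower to the left. For LR-V against C at E-L 38, 17.9% of the members and 10.1% of all genes are higher, and for C between E-L 37 and E-L 38, 2.99% and 10.9%.

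Whether a treatment's difference from C changed between stages was tested directly. From E-L 36 to E-L 37 the LR-V difference dropped for 7 members and increased for none (10.4% against 4.54% of all genes, of which 1.05% increased and 3.49% dropped), with a median change of −0.44 against −0.11 for all genes. VIT_205s0049g01120 changed by −2.09 ± 0.43 (SE; limma adjusted p = 0.00788), from above C to a mean of 2.6 against 5.173, and VIT_200s0153g00050 by −1.09 (limma adjusted p = 0.0148). From E-L 37 to E-L 38 it increased for 6 and dropped for 1 (10.4% against 7.7% of all genes, of which 5.55% increased and 2.15% dropped), with a median of 0.45 against 0.11. After scaling by the median of ratios the medians of the members were −0.34 and 0.35, with those of all genes centred at 0.01, and 4 drops were called in the first step. VIT_216s0039g00990 changed by 1.87 ± 0.35 (SE; limma adjusted p = 0.00214), VIT_205s0049g01120 by 1.68 ± 0.43 and VIT_201s0026g01340 by 1.15 ± 0.27.

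The 4 members called higher in LR-V at both E-L 36 and E-L 38 (5.97%, against 0.916% of all genes) were VIT_201s0026g01340, VIT_206s0004g03690, VIT_200s0153g00050 and VIT_205s0049g01120. Their log2 differences at E-L 37 were 0.07, 0.25, −0.27 and −0.81, with no call. Since they were picked by those calls, their changes between stages are a description and not separate support. The first-step change of VIT_201s0026g01340 was lost under 13 of 20 alternatives, with adjusted p up to 0.116 in limma. The tests of both steps use the same E-L 37 libraries, LR-V replicate B among them, and without that library 13 changes were called in the first step and 11 in the second. The first count was 3 without LR-V replicate A or B of E-L 36 or LR-V replicate A or C of E-L 37, and 4 without C replicate C of E-L 36 or C replicate B of E-L 37. The second was 3 without LR-V replicate A of E-L 37 or LR-V replicate C of E-L 38, 4 without C replicate C of E-L 38 and 11 without LR-V replicate B of E-L 38. For LM-V, no change was called between E-L 36 and E-L 37 (0.0405% of all genes, 0.0202% in each direction, 7 members at an unadjusted p under 0.05), and 4 between E-L 37 and E-L 38 (5.97% against 3.81% of all genes, of which 2.39% increased and 1.41% dropped): 3 increased and 1, VIT_205s0049g01090, dropped (−1.21, limma adjusted p = 0.018). The last count was 0 without C replicate C of E-L 38, 1 without C replicate A or B of either stage, LM-V replicate A or B of E-L 37 or LM-V replicate A of E-L 38, and 2 without LM-V replicate C of E-L 37 or B of E-L 38.

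Over all comparisons of a treatment with C, 22 of the 67 tested members were called at least once (32.8%, against 28.2% of all genes) and 45 never. Stage comparisons of C called 37 (55.2% against 51.7%), and 25 members were called in no comparison at all (37.3% against 38.9%). The zeta gene VIT_215s0048g00950, whose class works in the breakdown of tyrosine, was among the latter, with means of 1.903 to 3.16 in C and of 2.047 to 3.053 in LR-V over the 3 stages. It was chosen after its values were seen.

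The genes around the family, which make, reduce and use glutathione or move its conjugates, were taken from lists of annotation words. The single glutamate-cysteine ligase gene, for the first step of glutathione synthesis, was not called in LR-V at any stage and rose slightly in LM-V at E-L 38, from 99.96 ± 1.83 to 116.5 ± 3.58 (SD, n = 3; VIT_202s0025g03530, limma adjusted p = 0.0453). Glutathione synthase and both glutathione reductase genes were called in no comparison of a treatment with C. Of 5 glutathione peroxidases, which reduce peroxides, 2 were called against C, in opposite directions. VIT_204s0008g06780 was higher under leaf removal at E-L 36 (16.39, 17.99 and 16.41 against 12.92, 9.77 and 11.92; limma adjusted p = 0.0239) and under leaf moving in ripe berries (limma adjusted p = 0.0305). VIT_205s0102g00120 was lower under leaf removal at E-L 37 (5.64, 5.34 and 4.11 against 11.16, 11.39 and 9.48; limma adjusted p = 0.00359) and lower in both treatments at E-L 38.

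For 25 tested genes the annotation named ABCC transporters, the group that holds the vacuolar pumps for glutathione conjugates. It does not say what each of them carries or where. Under leaf removal in ripe berries, 6 rose and 4 fell (10.1% and 7.66% of all genes), and 3 rose and 3 fell under leaf moving (4.6% and 4.9% of all genes). The 2 with the smallest adjusted p under leaf removal both fell. VIT_219s0015g00020 was at 26.81, 27.5 and 24.5 in LR-V and at 52.65, 45.64 and 50.06 in C at that stage (limma adjusted p = 5.66e-06). VIT_209s0002g02440 was at 1.91, 3.02 and 2.13 against 7.56, 7.92 and 7.73 (limma adjusted p = 0.000107). Both were lower in each LR-V library than in any control library. Among those that rose, VIT_215s0021g00220, chosen after its values were seen, was at 124.78, 158.51 and 143.37 against 74.09, 76.93 and 107.75 (limma adjusted p = 0.00205). Of 18 tested glutaredoxins, small proteins that reduce disulfides with glutathione, 2 rose and 5 fell under leaf removal in ripe berries (10.1% and 7.66% of all genes), the latter including VIT_213s0067g01650 at 15.65, 14.03 and 13.19 against 31.36, 30.09 and 24.31 (limma adjusted p = 6.57e-05). Ascorbate peroxidases, which share the ascorbate cycle with DHAR, were mostly lower at the end of ripening in C: 6 of 7 tested genes fell from E-L 37 to E-L 38 (17.6% of all genes), after 1 rise and 2 falls in the step before.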

How the data were processed

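Fruit RNA was sequenced in 27 libraries. The authors aligned the reads to the grapevine genome (the submitters' processing notes list Bowtie2 2.2.5) and deposited 1 FPKM value per gene and library. No source used here names the program that computed them. FPKM keeps no depth, so relative depth was estimated from the steps between low values. Log2(FPKM + 1) was fitted with limma 3.58.1 (statmod 1.5.0, R 4.3.3) in 1 model of 9 groups, with trend and robust steps, for genes at FPKM 1 or more in 3 or more libraries. The p-values were adjusted by Benjamini-Hochberg over all tested genes, with a threshold of 0.05. Fold changes on this scale understate those of low genes. The fit was also run on simulated data with independent noise around each gene's mean. Those data held no seed-high libraries and no differences between runs, so they cannot speak to either. The members and lists were chosen with earlier results of these data known.

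Named members were those called in a comparison, up to 12 with the smallest adjusted p for treatments, 6 in each direction for stages of C and 6 for changes between stages, plus the 10 with the highest mean FPKM. Others are said to have been chosen after their values were seen. Classes came from the annotation words or from a KEGG protein in common with a worded member, at 150 bits or more. Planned classes by protein identity and searches of promoters were not run, and no sequence is printed. Alternatives were the pseudocount, scaling, filter, trend and robust steps, groups fitted, replicate block, seed score, the rebuilt NOISeq rule and leaving out each library. Leaving out the seed-high libraries was chosen after seeing the data.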

Additional observations from a re-analysis of the deposited data

Results flagged for a closer look

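For 18 values, a treatment's log2 difference from C changed between stages by the test of the difference itself (limma, adjusted p under 0.05 over all genes). Between E-L 36 and E-L 37 the LR-V difference changed by −2.09 for VIT_205s0049g01120, −1.78 for VIT_207s0104g01800, −1.31 for VIT_207s0005g00030, −1.25 for VIT_205s0051g00130, −1.09 for VIT_200s0153g00050, −0.98 for VIT_201s0026g01340 and −0.44 for VIT_208s0040g03100. Between E-L 37 and E-L 38 it changed by 3.23 for VIT_212s0028g00920, 1.87 for VIT_216s0039g00990, 1.68 for VIT_205s0049g01120, 1.18 for VIT_206s0004g03690, 1.15 for VIT_201s0026g01340, 0.84 for VIT_200s0153g00050 and −1.16 for VIT_219s0015g02690. The LM-V difference changed between these last stages by 1.26 for VIT_207s0005g04890, 0.98 for VIT_201s0026g01340, 0.83 for VIT_212s0028g00930 and −1.21 for VIT_205s0049g01090. Several were lost under many of 20 alternatives, which were run for all but VIT_208s0040g03100 and the later change of VIT_200s0153g00050: 14 for VIT_205s0051g00130, VIT_207s0005g04890 and VIT_201s0026g01340 in LM-V, 13 for VIT_201s0026g01340 between E-L 36 and E-L 37 in LR-V and for VIT_212s0028g00930, 10 for VIT_212s0028g00920, and 7 for VIT_207s0005g00030 and VIT_219s0015g02690.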

How the results depend on the processing

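No direction of a named member's difference reversed under any alternative run. Calls of named members were lost in 192 of 540 refits that left out 1 library, in 35 of 74 without the seed-high libraries, 28 with only the groups compared fitted, 11 with the seed score as covariate, 8 with no filter, 8 with no trend or robust step, 3 with scaling and 2 with a pseudocount of 0.5. The cause was not tested. Shares of all genes are not given for the refits, so the counts below cannot be read as particular to the members. The labels do not say whether the letters of the replicates pair the libraries. Their correlations of deviations ran from −0.21 to 0.278, and in 0 comparisons were all 3 over 0.1. With 3 libraries per group these values cannot exclude a pairing. With the replicate block, counts were 5 for LR-V against C at E-L 36, 15 at E-L 38, 7 for LM-V against C at E-L 38, 9 for LR-V against LM-V, 23 and 16 for the stages of C, 6 and 6 for the changes of LR-V and 3 for that of LM-V, and 6 named calls were lost. The rebuilt NOISeq rule called 2, 1 and 5 members for LR-V against LM-V in the 3 stages, 0 for LR-V against C at E-L 37, 4 for LM-V against C at E-L 38, and 10 and 6 for the stages of C. With only the groups compared, 1 was called for LR-V against C at E-L 37 and 8 at E-L 38, 0 for LR-V against LM-V at E-L 38 and 4 for each change of LR-V. Without the seed-high libraries the counts were 5 for LR-V against C at E-L 37 and 2 at E-L 38, 0 for LR-V against LM-V at E-L 38 and 1 for the later change of LR-V. With the seed score as covariate they were 9 for LR-V against C and 5 for LR-V against LM-V at E-L 38. A pseudocount of 0.5 gave 1 for LR-V against C at E-L 37. For the earlier change of LR-V, no filter and scaling gave 4 each, and for the change of LM-V no filter gave 2 and no trend or robust step 1. Leaving out 1 library at a time gave 1 to 7 calls for LR-V against C in the first stage, 1 to 7 in the second and 4 to 20 in ripe berries, 0 to 1 and 2 to 5 for LM-V against C at the later stages, 0 to 16 for LR-V against LM-V at E-L 38, 18 to 23 and 12 to 16 for the stages of C, 3 to 13 and 3 to 11 for the changes of LR-V and 0 to 4 for the later change of LM-V. Levels near FPKM 1 rest on few reads.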
